A study of Mus musculus with 10 samples.

Results

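The genes described here encode the mitochondrial respiratory chain and ATP synthase of the mouse, together with the complex I assembly factors and 2 relatives that share their symbols. They were taken by name, not by level. A gene was a member where a probe of the CodeLink mouse array carried exactly 1 symbol and that symbol began with Ndufa, Ndufb, Ndufc, Ndufs, Ndufv, Uqcr, Atp5 or Cox4 to Cox8, or was Sdha, Sdhb, Sdhc, Sdhd or Cycs. This gave 95 probes for 84 genes, of 18069 genes that had a probe with 1 symbol. Where a gene had several probes, the one with the highest mean log2 level over the 10 arrays was read. The 84 genes comprised 30 of complex I, 7 complex I assembly factors, 4 of complex II, 8 of complex III, cytochrome c, 16 of complex IV, 16 of complex V, the paralog Ndufa4l2 and the pseudogene Ndufs5-ps. To be tested, a gene had to exceed background on both arrays in 1 group or more and to have a usable spot in every group, and 81 genes did. The other 3 were Ndufaf8, at background on all arrays, Uqcrq, at background on 9 arrays and at 0.46 on 1 βTC6 array, and Ndufs1, whose spots were masked on the βTC6 and islet arrays. Ndufs1, a core subunit of complex I, gave 12.3 and 11.2 array medians in Dox(+) EBs, 6.81 and 6.64 in Dox(−) EBs, and 13.1 and 13.2 in E15.5 pancreas. This was the only one of the 3 with a signal in both EB groups, and it was not in the fit used for the calls below. An alternative fit with no filter on background took in all 84 members for Dox(+) minus Dox(−) EBs. There 4 members rose, of which 3 also rose in the fit used below, and the value of Ndufs1 is not given here.

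The respiratory chain passes electrons taken from NADH at complex I, and from succinate at complex II, through complex III and cytochrome c to oxygen at complex IV. Complexes I, III and IV pump protons across the inner mitochondrial membrane, and complex V uses the proton gradient to make ATP. Most subunits are encoded in the nucleus, and a few subunits of complex IV exist in alternative isoforms, of which some are used mainly by heart and skeletal muscle. In pancreatic beta cells, ATP made from glucose closes a potassium channel and so leads to insulin release.

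Total RNA was compared on 10 arrays, 2 in each of 5 groups. Dox(+) EBs were embryoid bodies grown from Ainv18 mouse ES cells with a doxycycline-inducible Pdx1-IRES-Ngn3 cassette, kept in 1 µg/ml doxycycline from day 4 and collected on day 13. Dox(−) EBs were the same engineered cells without doxycycline. Both EB groups thus carried the cassette, and both passed through activin A, BMP4 and bFGF. One label of the EB samples instead names an activated Notch4 cassette. βTC6 cells are a mouse insulinoma line, the islets were whole islets, for which the labels give no age or strain, and E15.5 pancreas was whole embryonic pancreas. The study's text calls the islet sample adult, while a column heading of its supplement marks islets as E15.5, so their age is uncertain. The 2 samples of a group are numbered as biological replicates, with no statement of separate cultures or dissections, and p-values therefore reflect only how far these samples spread. The question put by the design was how the transcripts of EBs that overexpress Pdx1 and Ngn3 compare with those of EBs that do not, and with those of pancreatic cells and tissue.

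Levels are given in array medians, that is, as the background-corrected intensity divided by the median of all 34967 discovery probes of the array, and a level of 0.27 is the floor. Between 66.0% and 74.3% of probes lay above background, and the median net signal over background was 2.49 and 2.63 on the Dox(+) arrays against 1.77 and 1.92 on the Dox(−) arrays, and 1.66 to 2.54 on the others. The summed level of 13 endocrine markers was 602 and 524 in Dox(+) EBs against 8.33 and 8.34 in Dox(−) EBs, and that of acinar markers was 2126 and 1866 over 9 of 10 genes in islets, against 1221 and 1193 over 10 genes in E15.5 pancreas. On each array, 7 of the acinar spots were saturated in islets and 3 in E15.5 pancreas, so these sums are lower bounds. Exocrine transcripts were thus abundant in the islet RNA. By the slide numbers in the file headers, the EB arrays, the E15.5 arrays, and the βTC6 and islet arrays together formed 3 separate ranges. A difference between EBs and any other group, or between islets and E15.5 pancreas, thus cannot be told apart from a difference between slide ranges, while Dox(+) with Dox(−) and βTC6 with islets were compared within a range. Within these ranges the slides of 1 group followed those of the other, with a step of 2 slide numbers between the EB groups and of 23 between βTC6 cells and islets, and the part of slide in either comparison was not tested. In bulk RNA, fewer cells of a type and less RNA per cell cannot be told apart.

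The median level over the members was 47.1 and 44.7 in Dox(+) EBs, against 50.1 and 52.5 in Dox(−) EBs. It was 107 and 122 in βTC6 cells, 45.4 and 39.1 in islets, with 61.1 and 61.6 in E15.5 pancreas. On these levels, βTC6 cells stood highest of the 5 groups for 73 of the 81 members and islets lowest for 43. The plot of levels by complex shows the same order of groups in complexes I and V, with βTC6 cells highest, then E15.5 pancreas, Dox(−) EBs, Dox(+) EBs and islets. The order of the 4 groups below βTC6 cells was not tested.

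**Figure D1:**
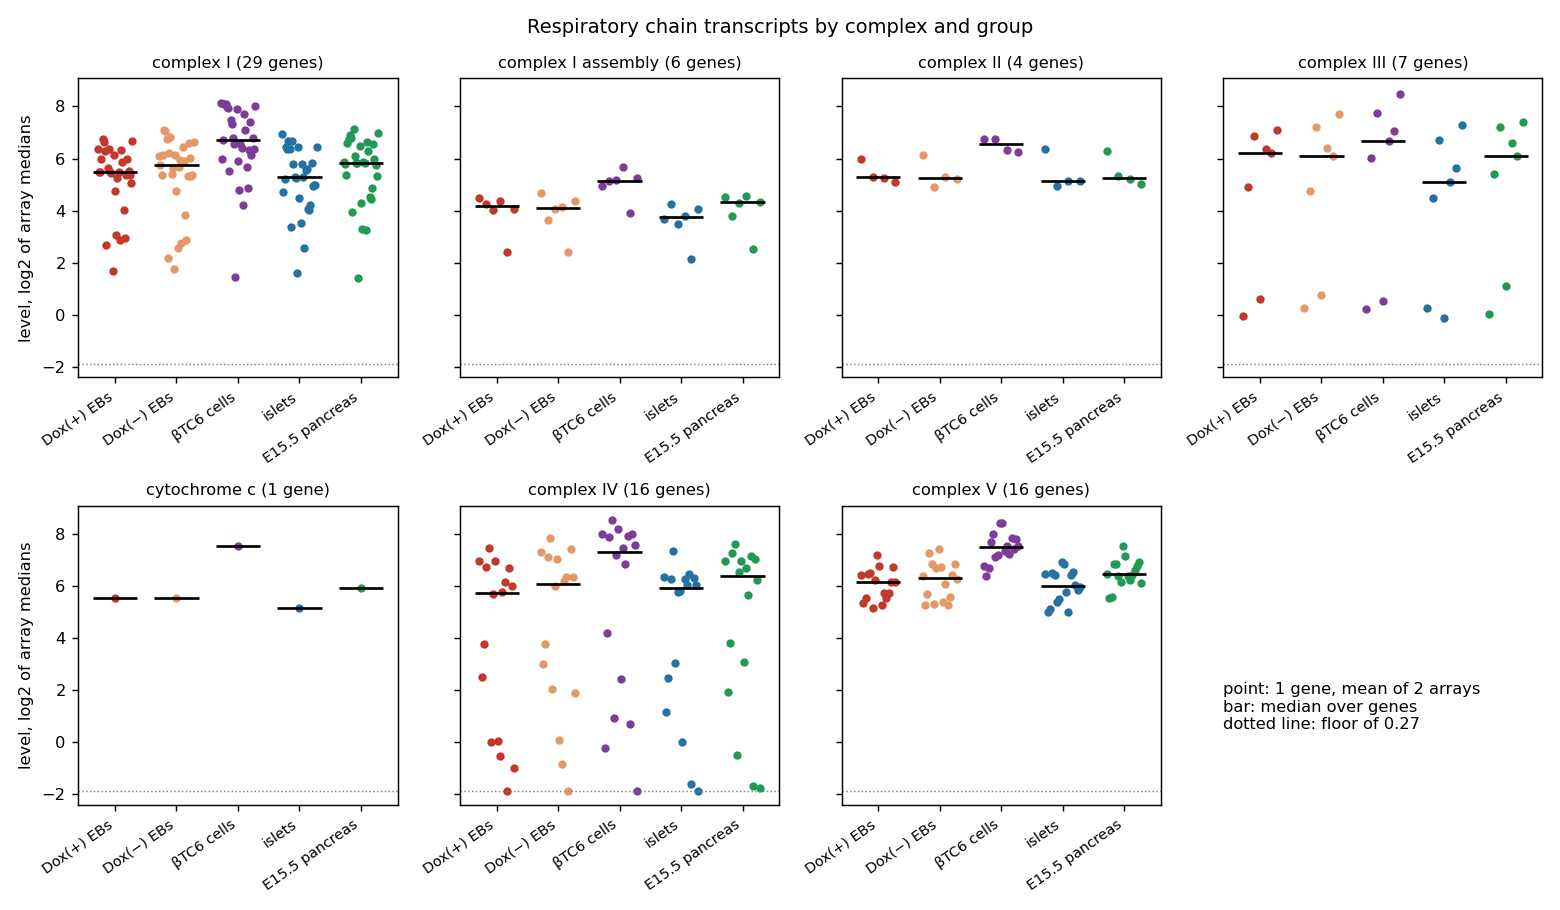
Levels of the tested respiratory chain genes in the 5 groups, in a panel for each complex, without Ndufa4l2 and Ndufs5-ps. The vertical axis is log2 of the level in array medians, each point is 1 gene as the mean of its 2 arrays, the bar is the median over genes, and a dotted line marks the floor, 0.27. The median of βTC6 cells is the highest in every panel.

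Doxycycline changed few respiratory chain transcripts by much. In Dox(+) against Dox(−) EBs, 4 of the 81 members rose and 26 fell at an adjusted p under 0.05, and 51 did not pass. Over all 28109 probes tested, 43.2% passed, 20.7% higher and 22.5% lower. The median difference of the members was -0.13 on the log2 scale, against -0.03 over all probes, and 2 members, Cox8b and Cox6a2, differed by a log2 of 1 or more. The direction of the count depended on the scaling. With quantile normalization, 21 members rose and 9 fell, and the median difference was 0.05. Of the 81 members, 59 or 60 lay above the 90th percentile of the tested probes on each EB array, and the 98th percentile was 54.6 and 52.5 array medians on the Dox(+) arrays against 64.0 and 62.5 on the Dox(−) arrays. Without either Dox(−) array in turn, or without Dox(+) array 2, the count of falls was 17, and without Dox(+) array 1 it was 22. The same 4 members rose, and 9 fell, under array-median scaling and under both forms of quantile normalization, and no member passed in opposite directions. The 9 were Cox8b, Cox6a2, Cox7c, Atp5d, Ndufs6, Ndufs7, Ndufb4, Ndufaf7 and Ndufa4l2, of which Cox7c, Ndufs7 and Ndufb4 are named after their values were seen. The other 17 falls passed with array-median scaling only, or with 1 form of quantile normalization beside it.

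A further 17 members rose with quantile normalization only. Among them, Ndufa1, an accessory subunit of complex I, differed by 0.23 with array-median scaling (adjusted p = 0.0534) and by 0.52 with quantile normalization (adjusted p = 5.5e-05), with 84.4 and 78.4 array medians in Dox(+) EBs against 71.2 and 67.3 in Dox(−) EBs. Atp5l differed by 0.27 and 0.54, and Atp5md by 0.15 and 0.43, under the same 2 scalings. Cycs differed by 0.00 and 0.26.

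**Figure D2:**
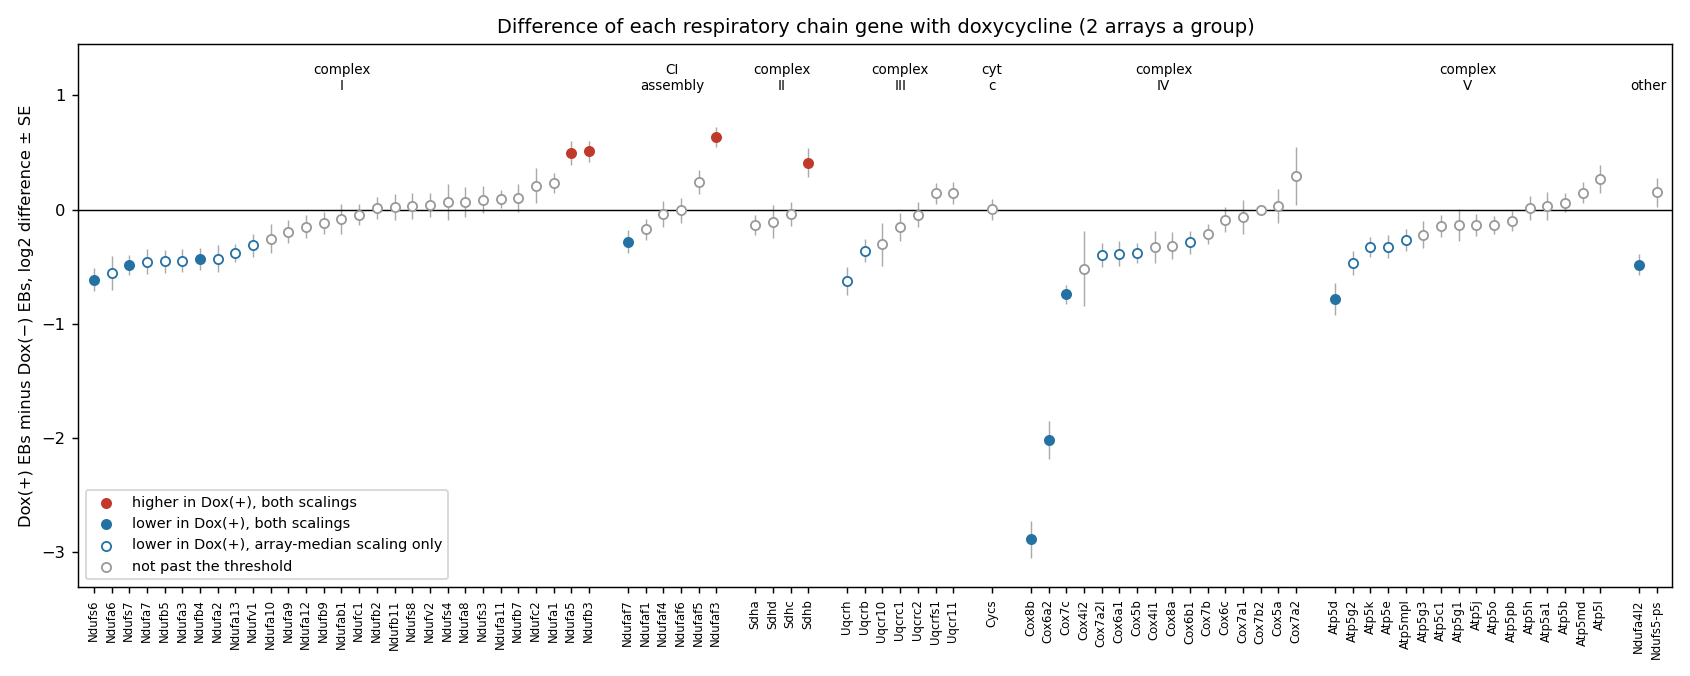
Log2 difference of each of the 81 tested genes, Dox(+) EBs minus Dox(−) EBs, with its standard error (2 arrays a group), ordered within each complex. Filled points passed an adjusted p of 0.05 under array-median and quantile scaling, open blue points under array-median scaling only, and grey points did not pass with array-median scaling. Cox8b and Cox6a2 lie far below all other genes.

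Complex I takes electrons from NADH. With array-median scaling, 2 of its 29 tested subunits rose and 10 fell, with a median difference of -0.08. Both rises, and the falls of Ndufs6, Ndufs7 and Ndufb4, also passed with both forms of quantile normalization. Ndufb3, an accessory subunit, gave 8.65 and 8.11 array medians in Dox(+) EBs against 5.73 and 6.03 in Dox(−) EBs, a log2 difference of 0.51 ± 0.09 (SE, adjusted p = 0.00133). Ndufa5, another accessory subunit, gave 6.23 and 6.40 in Dox(+) EBs against 4.03 and 5.00 in Dox(−) EBs (0.49 ± 0.10, adjusted p = 0.00325). The 2 groups did not overlap for either gene. The largest fall was that of Ndufs6, an accessory subunit, with 59.9 and 65.2 in Dox(+) EBs against 103 and 89.4 in Dox(−) EBs (-0.62 ± 0.10, adjusted p = 0.000632). Ndufs7, a core subunit with an iron-sulfur cluster, gave 45.1 and 47.8 against 67.3 and 62.9 in Dox(−) EBs (-0.49). The falls of Ndufs6 and Ndufs7 were smaller with quantile normalization, -0.36 and -0.28, and passed there too.

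Of 6 tested assembly factors of complex I, which help to build it without being part of it, 1 rose and 1 fell. Ndufaf3 rose, with 20.01 and 18.5 array medians in Dox(+) EBs against 12.7 and 12.0 in Dox(−) EBs (0.64 ± 0.09, adjusted p = 0.000187). It was the largest measured rise among the 81 members, 1.56-fold. Ndufaf7, a methyltransferase for a complex I subunit, fell by 0.28 on the log2 scale, with 17.0 and 16.6 against 21.9 and 19.1 in Dox(−) EBs. Its adjusted p was 0.0443, and 0.275 without Dox(−) array 1, 0.115 without Dox(+) array 1 and 0.153 without Dox(+) array 2. The other 4 tested factors, among them Ndufaf1, Ndufaf5 and Ndufaf6, did not pass.

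Complex II, succinate dehydrogenase, takes part in both the citric acid cycle and the respiratory chain. Sdhb, its iron-sulfur subunit, gave 39.7 and 39.1 array medians in Dox(+) EBs against 26.9 and 32.6 in Dox(−) EBs (0.41 ± 0.12, adjusted p = 0.0209). This call depended on single arrays, with an adjusted p of 0.177 without Dox(−) array 1, 0.0968 without Dox(+) array 1 and 0.0818 without Dox(+) array 2. Sdha, the flavoprotein, and the membrane anchors Sdhc and Sdhd had differences of -0.14, -0.04 and -0.10 and did not pass. Cycs, the electron carrier between complexes III and IV, gave 47.1 and 45.7 in Dox(+) EBs, against 48.0 and 44.7 in Dox(−) EBs, a difference of 0.00 ± 0.09.

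In complex III, 2 of 7 tested subunits fell and none rose with array-median scaling, and neither fall passed with quantile normalization. Uqcrh, the hinge protein that docks cytochrome c1 with cytochrome c, gave 140 and 135 array medians in Dox(+) EBs against 240 and 186 in Dox(−) EBs (-0.62 ± 0.12, adjusted p = 0.00162). With quantile normalization its difference was -0.18 (adjusted p = 0.136). In complex V, 5 of 16 fell and none rose with array-median scaling, and of these falls only that of Atp5d passed with quantile normalization. Atp5d, the delta subunit of the rotor stalk, gave 87.2 and 92.0 in Dox(+) EBs against 142 and 166 in Dox(−) EBs (-0.78 ± 0.14, adjusted p = 0.00119). Atp5k, a subunit of the membrane part, fell by 0.33 on the log2 scale with array-median scaling, and its difference was -0.08 with quantile normalization. It did not pass without Dox(−) array 1 (adjusted p = 0.0553), Dox(−) array 2 (0.0678) or Dox(+) array 2 (0.0993).

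Complex IV held the largest differences. With array-median scaling, 7 of its 16 subunits fell and none rose, with a median difference of -0.32. Of these falls, those of Cox8b, Cox6a2 and Cox7c also passed with both forms of quantile normalization. Cox8b and Cox6a2, isoforms that heart and skeletal muscle use in place of Cox8a and Cox6a1, led the list. Cox8b gave 0.54 and 0.48 array medians in Dox(+) EBs against 3.49 and 3.99 in Dox(−) EBs, 7.39-fold lower (-2.88 ± 0.16, adjusted p = 1.92e-07). It was at background in βTC6 cells and islets, and on 1 of the 2 E15.5 arrays. Cox6a2 gave 1.07 and 0.96 in Dox(+) EBs against 3.48 and 4.86 in Dox(−) EBs, 4.04-fold lower (-2.02 ± 0.16, adjusted p = 7.79e-06). For both genes, each Dox(+) array lay below each Dox(−) array, and the difference kept its call without any 1 of the 10 arrays.

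Of the widely expressed counterparts, Cox8a gave 67.3 and 62.7 array medians in Dox(+) EBs, against 79.2 and 82.5 in Dox(−) EBs (-0.31 ± 0.12, adjusted p = 0.0539). Cox6a1 passed with a difference of -0.38, but both Dox(+) spots were saturated, at 167 and 189, while the Dox(−) spots read 237 and 227 unsaturated, so its fall was not measured. The sign turned with quantile normalization (0.10). Cox7c, which has no such isoform pair in the member list, gave 110 and 98.5 in Dox(+) EBs against 163 and 185 in Dox(−) EBs (-0.74 ± 0.09, adjusted p = 5.59e-05). Cox5b, Cox6b1 and Cox7a2l, the last a factor of supercomplex assembly, fell by 0.38, 0.29 and 0.40 on the log2 scale, and none of the 3 passed with quantile normalization. Cox6b1 (adjusted p = 0.283) and Cox7a2l (0.0748) also did not pass without Dox(−) array 1. Cox5a (0.03), Cox7b (-0.21) and Cox4i1 (-0.33) did not pass.

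Not every muscle isoform followed Cox8b and Cox6a2. Cox7a1, a further heart and skeletal muscle isoform, gave 1.13 and 0.92 array medians in Dox(+) EBs, against 0.97 and 1.17 in Dox(−) EBs (-0.06 ± 0.15), so the arrays of the 2 groups overlapped. Cox4i2, an isoform best known from lung, gave 4.09 and 7.74 in Dox(+) EBs, against 7.67 and 8.46 in Dox(−) EBs, with replicates further apart than the groups (-0.52 ± 0.33, adjusted p = 0.237). Cox7b2, known from testis, was at background on all 4 EB arrays. Cox6b2 and Cox8c had no probe with 1 symbol.

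Sarcomere genes moved with Cox8b and Cox6a2. Of 21 tested genes of heart and skeletal muscle, 19 fell in Dox(+) EBs and none rose, with a median difference of -1.90, and the counts were the same with quantile normalization. Their summed level was 35.8 and 33.4 array medians in Dox(+) EBs against 240 and 325 in Dox(−) EBs. Myl7, the atrial light chain, gave 3.16 and 3.34 against 71.3 and 102 in Dox(−) EBs, and Actc1, cardiac actin, gave 4.21 and 4.68 against 51.3 and 73.5 in Dox(−) EBs. Myl4 (-3.70) and Myl2 (-3.85), 2 further myosin light chains, also fell, and Myl2 was at the floor on both Dox(+) arrays. The part of muscle cells in the fall of Cox8b and Cox6a2 was not tested. In islets, where Cox8b was at background, Cox6a2 stood at 8.86 and 7.77, and 13 and 12 of the 21 sarcomere genes were at the floor. Their summed level in islets of 266 and 212 came mostly from Myl3, a ventricular and slow muscle light chain, at 254 and 200 on saturated spots, which is named after its values were seen.

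The promoter windows of 2 isoform pairs are shown, each of a tissue-restricted and a widely expressed subunit. Of the restricted subunits, Cox8b fell with doxycycline and Cox7a1 did not pass. Each window is RefSeq sequence of build GRCm38.p6, written 5′ to 3′ on the gene's strand, with 250 bases before the annotated start and 50 after it. Cox8b lies at chr7:140900397-140900696 (minus strand), Cox8a at chr19:7217567-7217866 (minus strand), Cox7a1 at chr7:30183921-30184220 (plus strand) and Cox7a2 at chr9:79759804-79760103 (minus strand). Capitals mark matches on either strand to CANNTG (the E-box), CCGGAAG (a site of ETS factors) or TATAAA, and a match is a description of the letters only.
Cox8b: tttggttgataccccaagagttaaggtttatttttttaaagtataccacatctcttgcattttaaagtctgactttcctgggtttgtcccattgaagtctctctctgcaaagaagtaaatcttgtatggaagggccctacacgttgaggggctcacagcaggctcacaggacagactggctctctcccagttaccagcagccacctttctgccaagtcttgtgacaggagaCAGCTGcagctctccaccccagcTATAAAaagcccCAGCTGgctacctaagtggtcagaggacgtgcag
Cox8a: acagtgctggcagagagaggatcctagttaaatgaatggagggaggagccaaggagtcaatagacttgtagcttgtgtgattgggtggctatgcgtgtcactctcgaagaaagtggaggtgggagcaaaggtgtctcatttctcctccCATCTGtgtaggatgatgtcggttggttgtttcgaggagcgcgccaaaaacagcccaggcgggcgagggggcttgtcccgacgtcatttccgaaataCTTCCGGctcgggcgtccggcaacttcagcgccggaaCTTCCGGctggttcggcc
Cox7a1: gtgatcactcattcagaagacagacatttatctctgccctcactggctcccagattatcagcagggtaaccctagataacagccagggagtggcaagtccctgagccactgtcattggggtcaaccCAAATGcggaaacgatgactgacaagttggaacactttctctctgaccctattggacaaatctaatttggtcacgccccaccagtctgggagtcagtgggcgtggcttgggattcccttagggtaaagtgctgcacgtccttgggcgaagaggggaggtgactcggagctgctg
Cox7a2: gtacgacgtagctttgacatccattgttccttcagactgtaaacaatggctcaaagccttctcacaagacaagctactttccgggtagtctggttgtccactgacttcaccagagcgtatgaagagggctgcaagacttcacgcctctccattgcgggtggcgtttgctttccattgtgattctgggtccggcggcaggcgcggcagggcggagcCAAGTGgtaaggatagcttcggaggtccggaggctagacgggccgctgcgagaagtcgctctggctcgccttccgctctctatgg

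The window of Cox8b held 2 CANNTG, at bases 232 and 267, and 1 TATAAA at base 255, and had 2 CpG dinucleotides and 48.3% G and C. That of Cox8a held 2 CCGGAAG, at bases 246 and 283, and 1 CANNTG, with 19 CpG and 56.0% G and C. Cox7a1 and Cox7a2 each held 1 CANNTG, with 7 and 20 CpG. A window was listed for 68 of the 84 members, 73 windows in all, and Cox6a2, Cox4i1 and Cox4i2 were among the 16 members without an entry. The member windows had a median of 20 CpG, against 7 over all 32851 windows. CCGGAAG was found in 24.7% of member windows against 8.86% of all windows. The motif of NRF1, a factor named for its role in respiratory chain genes, was found in 9.59% against 1.27%, in the windows of Atp5c1, Atp5g2, Ndufa11, Ndufa6, Ndufb4, Sdhd and Uqcrc1. Both of these motifs contain CpG, and the member windows and all windows were not matched for CpG. CANNTG was found in 74% of member windows and 72.3% of all, and TATAAA in 12.3% and 13.6%. The CArG box, the site of serum response factor, was found in 0 of 73 member windows and in 1.63% of all.

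**Figure D3:**
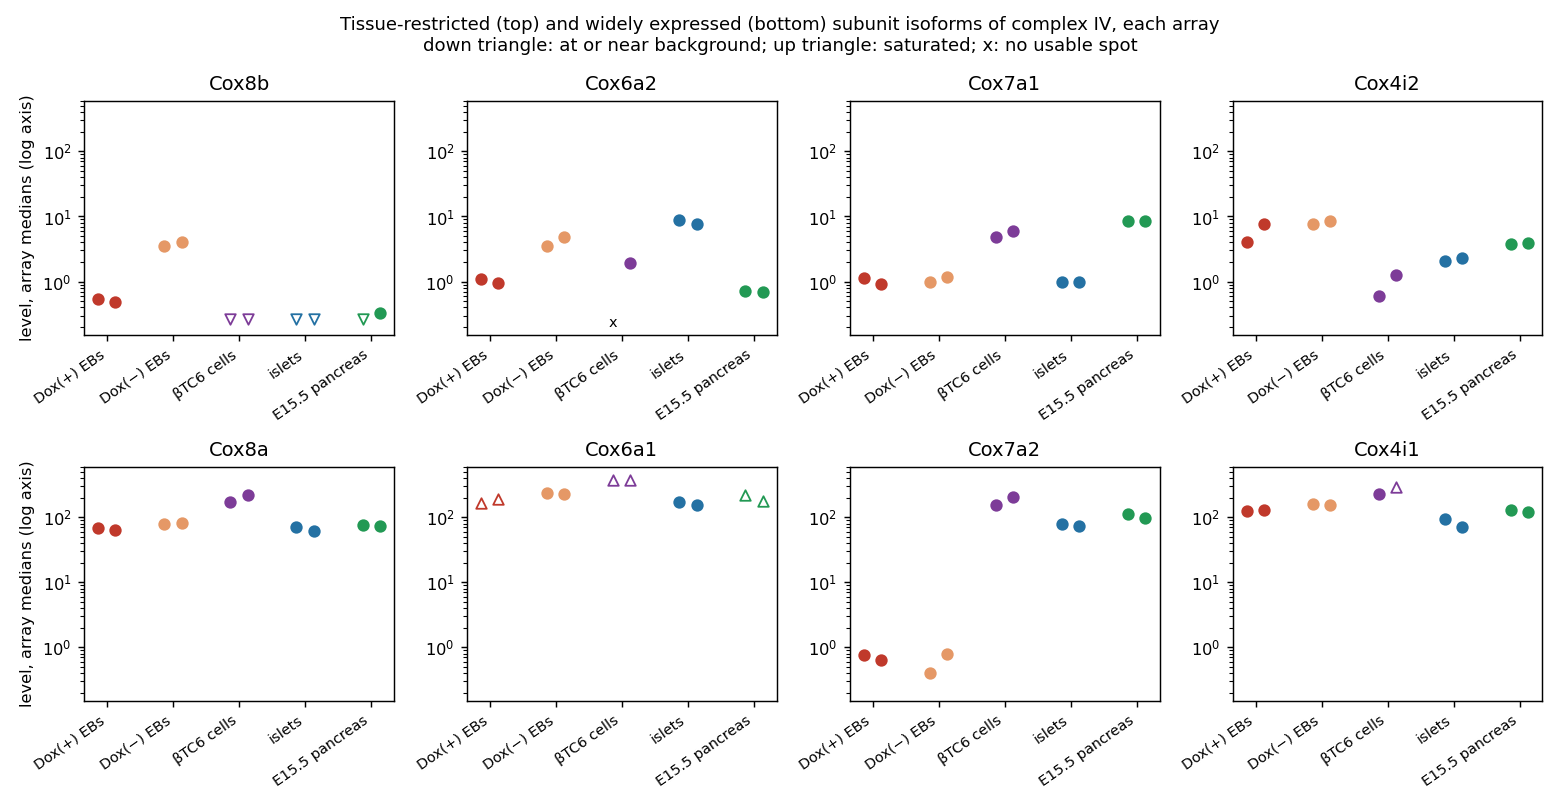
Levels of 4 tissue-restricted subunits of complex IV (top) and their widely expressed counterparts (bottom) on each of the 10 arrays. The vertical log axis is the level in array medians, downward triangles are spots at or near background, upward triangles saturated spots and the cross a spot that was not usable. Cox8b and Cox6a2 are lower on both Dox(+) arrays than on both Dox(−) arrays, and Cox7a2 lies below 1 on all 4 EB arrays.

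Cox7a2 and Ndufs5-ps were almost without signal in EBs, with or without doxycycline. Cox7a2, the widely expressed counterpart of Cox7a1, gave 0.75 and 0.64 array medians in Dox(+) EBs, against 0.40 and 0.79 in Dox(−) EBs. It gave 153 and 201 in βTC6 cells, 79.1 and 74.2 in islets, with 111 and 97.5 in E15.5 pancreas. Dox(+) EBs were thus 253-fold lower than βTC6 cells, 110-fold lower than islets and 150-fold lower than E15.5 pancreas, each with an adjusted p at or below 5.18e-09. Ndufs5-ps gave 0.33 and the floor in Dox(+) EBs and the floor on both Dox(−) arrays, against 95.2 and 98.5 in βTC6 cells, 45.4 and 39.1 in islets, with 35.1 and 39.8 in E15.5 pancreas. For both, the highest EB array lay below the lowest other array by a log2 of 5 or more, as for 5 of the 28109 tested probes (0.0178%). That cut was not planned in advance, so the share does not measure how unusual these 2 members are. Ndufs5-ps exceeded background on both arrays only in groups other than the EBs. The EB arrays also formed a slide range of their own. Ndufs5-ps is annotated as a pseudogene of the complex I gene Ndufs5, for which no separate probe was a member, and the probe's sequence was not analysed here, so which of the 2 transcripts it reads is uncertain. The study's methods state that some probes of this array are assigned to a wrong gene, and that the study refined these assignments. That refinement was not used here.

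βTC6 cells had more of nearly every respiratory chain transcript than islets. In βTC6 cells 75 of the 81 members were higher and 2 lower than in islets, against 39.1% higher and 27% lower of all probes, with 66.1% passing in either direction. The median difference was 1.46 for members against 0.12 for all probes. The upper end of the distribution was also higher on the βTC6 arrays, with a 90th percentile of 29.3 and 30.2 array medians against 20.1 and 18.9 on the islet arrays. With quantile normalization, which makes these distributions equal and moves the median of all probes by 0.12 to 0, 67 members were higher and 5 lower, with a median difference of 0.71. All 67 were among the 75. With array-median scaling, both βTC6 arrays lay above all 8 other arrays for 72 of 81 members, against 23.7% of all probes. This pattern was not counted with quantile normalization, and it also sets βTC6 cells against arrays of other slide ranges.

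The 9 members without that pattern were Cox4i2, Cox6a2, Cox7a1, Cox8b, Ndufa10, Ndufa4l2, Ndufab1, Uqcr10 and Uqcrc1, of which the last 3 are named after their values were seen. Ndufab1, the mitochondrial acyl carrier protein, gave 2.54 and 2.87 in βTC6 cells and 2.42 to 3.78 on the other arrays. Uqcr10, a small subunit of complex III, gave 1.25 and 1.07 in βTC6 cells and 0.942 to 1.454 on the others. Uqcrc1, a core subunit of complex III, gave 1.37 and 1.50 in βTC6 cells against 0.92 and 0.89 in islets, while E15.5 pancreas gave 2.16 and 2.12. All 3 were read near the array median.

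Most members of each complex were higher in βTC6 cells than in islets. All 16 members of complex V, all 6 tested assembly factors, all 4 of complex II and Cycs were higher with array-median scaling, as were 28 of 29 in complex I, 6 of 7 in complex III and 13 of 16 in complex IV. Cycs gave 180 and 198 array medians in βTC6 cells against 38.1 and 33.4 in islets, 5.29-fold higher (2.40 ± 0.09, adjusted p = 3.51e-09), and 1.56 on the log2 scale with quantile normalization. Atp5k gave 180 and 196 against 34.3 and 30.6 in islets (2.53 ± 0.09, adjusted p = 2.51e-09), the largest measured rise of the 81. On the 2 βTC6 arrays 6 and 8 members had saturated spots, so their rises are lower bounds and may be larger. Ndufa5 gave 45.7 and 46.7 against 10.5 and 9.99 in islets (2.17), and Ndufs4, an accessory subunit, gave 65.1 and 99.2 against 18.3 and 18.6 in islets (2.12). Sdhb (1.83) and Ndufaf5 (1.88) were the largest rises of their sets.

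A few subunits stood apart. Sdha rose by 0.40 with array-median scaling, and fell by 0.37 on the log2 scale with quantile normalization, so its direction was set by the scaling. Atp5a1, a catalytic-part subunit of complex V, likewise passed at 0.31 (adjusted p = 0.0483) and, in the other direction, at -0.45 (0.0117) with quantile normalization, and with each of the 10 arrays left out in turn its array-median call was kept 1 time. It gave 125.6 and 95.8 array medians in βTC6 cells against 85.1 and 92.5 in islets, and is named after its values were seen. Atp5l, of which 1 βTC6 spot was not usable, differed by 0.77 and by -0.08 under the 2 scalings. Cox6a2 had 1.91 array medians on its only usable βTC6 array against 8.86 and 7.77 in islets (-2.12 ± 0.20, adjusted p = 8.4e-06), and Cox4i2 had 0.60 and 1.25 in βTC6 cells against 2.10 and 2.33 in islets (-1.36 ± 0.33, adjusted p = 0.00372). These were the only 2 members lower in βTC6 cells with array-median scaling, and without βTC6 array 2 Cox6a2 had no βTC6 value, so that 1 was counted. Cox7a1 gave 4.82 and 6.00 in βTC6 cells against 1.00 and 1.00 in islets (2.43), and Cox7b2 gave 1.36 and 1.94 against 0.33 and 0.33 in islets (2.31). Atp5g1, a c-ring subunit of complex V, rose by 1.73 by its brighter probe, while its second probe was lower, with 1.74 and 3.80 in βTC6 cells against 9.46 and 11.3 in islets. Proliferation genes moved with these differences, since all 15 were higher in βTC6 cells, with a summed level of 1130 and 1226 against 49.7 and 43.1 in islets. Their part in the result, and that of the acinar RNA in the islets, was not tested.

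**Figure D4:**
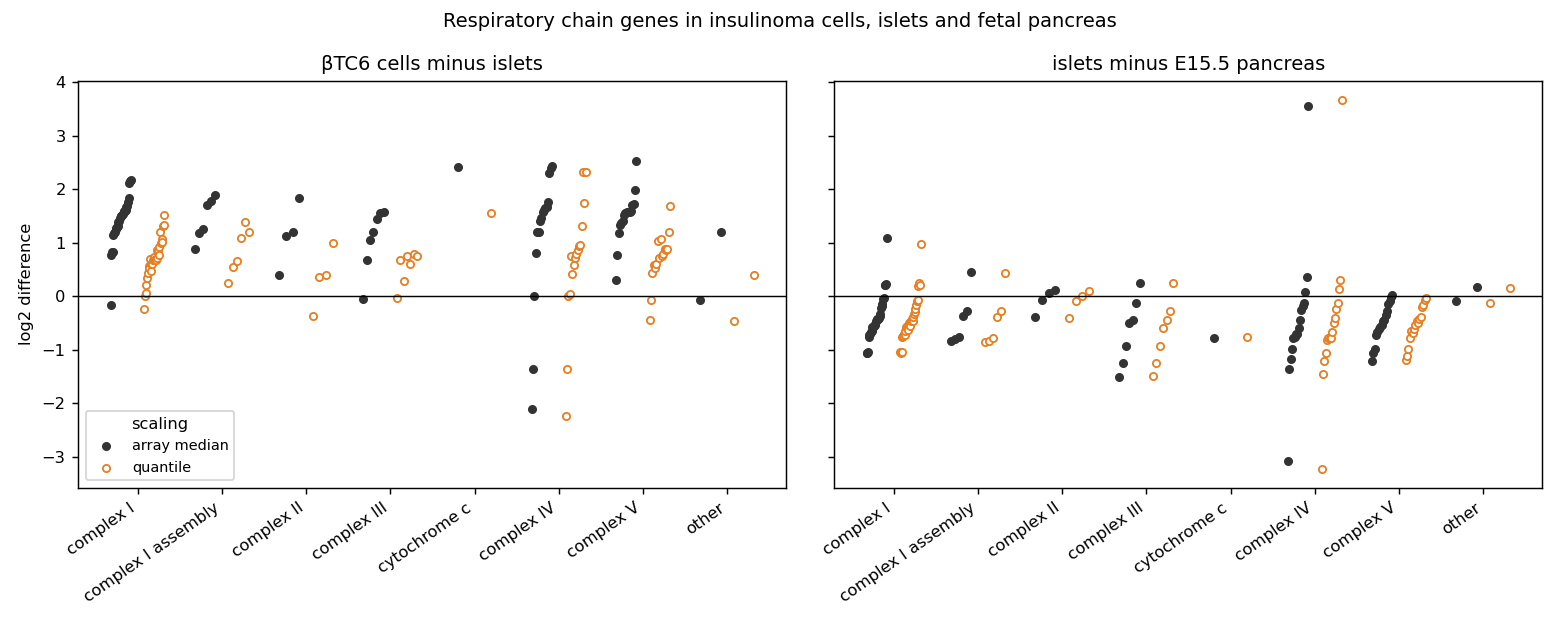
Log2 differences of the 81 tested genes by complex, βTC6 cells minus islets (left) and islets minus E15.5 pancreas (right). Each point is 1 gene, black with array-median scaling and open orange with quantile normalization. Most differences lie above 0 on the left, lower with quantile normalization, and below 0 on the right under both.

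Islets had less of most of these transcripts than E15.5 pancreas. In islets 52 members were lower and 4 higher than in E15.5 pancreas, against 32.5% lower and 32.5% higher of all probes (65% in either direction), with a median difference of -0.46 against 0.00 for all probes. The 52 lower and 4 higher members passed in the same direction with quantile normalization, where 58 were lower and 5 higher. Uqcrc2, a core subunit of complex III, gave 34.9 and 33.6 array medians in islets against 96.1 and 98.4 in E15.5 pancreas (-1.50 ± 0.11, adjusted p = 5.75e-07). Cox5a gave 5.54 and 5.46 in islets against 13.5 and 14.9 in E15.5 pancreas (-1.37), and Atp5k gave 34.3 and 30.6 against 74.0 and 75.5 in E15.5 pancreas (-1.20). Cox7a1 had the largest measured fall, with 1.00 and 1.00 in islets against 8.42 and 8.39 in E15.5 pancreas, 8.44-fold lower (adjusted p = 2.41e-08).

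The 4 members that were higher in islets were Cox6a2, Ndufa1, Ndufaf3 and Cox7a2l. Cox6a2 gave 8.86 and 7.77 array medians in islets against 0.70 and 0.70 in E15.5 pancreas, 11.8-fold higher (adjusted p = 4.96e-08). Ndufa1, an accessory subunit of complex I, gave 131 and 115 against 59.2 and 56.7 in E15.5 pancreas (1.08). Cox7a2l differed by 0.36, which did not pass without islet array 1 (0.28, adjusted p = 0.084) or without E15.5 array 1 (0.32, adjusted p = 0.0731). With array-median scaling, both islet arrays lay below all 8 other arrays for 33 of 81 members, against 18.5% of all probes. In complex II, Sdhb was lower in islets (-0.38), a call that was lost with a floor of 1 (adjusted p = 0.0752 by limma). Sdha, Sdhc and Sdhd, with differences of 0.06, -0.06 and 0.11, did not pass. Proliferation genes were lower in islets for all 15 tested, with a summed level of 49.7 and 43.1 against 573 and 576 in E15.5 pancreas, and their part was not tested.

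Dox(+) EBs had less of nearly every member than βTC6 cells with array-median scaling. Against βTC6 cells, 75 members were lower and 3 higher, of all probes 37.4% and 25.5% (62.9% in either direction), with a median difference of -1.28 against -0.11 for all probes. With quantile normalization 51 were lower and 9 higher, with a median of -0.32, and 6 members, Atp5a1, Ndufa10, Ndufs7, Sdha, Uqcrc2 and Uqcrfs1, passed in opposite directions under the 2 scalings, of which Uqcrfs1, the iron-sulfur subunit of complex III, is named after its values were seen. Uqcrc2 did not pass with array-median scaling without Dox(+) array 2 (adjusted p = 0.2911) or βTC6 array 1 (0.131). Ndufa5 gave 6.23 and 6.40 array medians in Dox(+) EBs against 45.7 and 46.7 in βTC6 cells, 7.32-fold lower, the largest measured difference of complex I. Ndufa1 was saturated on both βTC6 arrays and gave only a bound. The 3 higher members were Cox4i2 (2.70), Cox8b (at least 1.61-fold, since it was at background in βTC6 cells) and Ndufa4l2, a paralog of Ndufa4 known to respond to low oxygen (0.28). Ndufa4l2 did not pass without Dox(+) array 1 (0.25, adjusted p = 0.0883) or without βTC6 array 1 (0.25, adjusted p = 0.0641).

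Against islets, 33 members were higher in Dox(+) EBs, against 16 lower, of all probes 36.4% and 31.6% (68% in either direction), and the median difference was 0.15. With quantile normalization the counts were 49 and 12. Uqcrc2 gave 92.1 and 74.1 array medians in Dox(+) EBs against 34.9 and 33.6 in islets (1.27 ± 0.11, adjusted p = 2.12e-06), and Ndufs4 gave 44.1 and 39.5 against 18.3 and 18.6 in islets (1.18). Cox4i2 was higher by 1.35, and by 0.89 without Dox(+) array 2 (adjusted p = 0.0553). Ndufs3, a core subunit of complex I, was lower, with 7.43 and 7.99 against 17.9 and 14.8 in islets (-1.08), but its second probe differed by 0.21 (adjusted p = 0.13), with 9.36 and 10.7 in Dox(+) EBs against 9.51 and 7.82 in islets. Atp5l (-0.90) and Atp5md (-0.79), both of the membrane part of complex V, were lower.

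Against E15.5 pancreas, 43 members were lower in Dox(+) EBs, against 6 higher, of all probes 26.9% and 33.1% (60% in either direction), with a median difference of -0.30 against 0.07 for all probes. With quantile normalization 32 were lower and 15 higher, and without Dox(+) array 2 the count of lower members was 27. Ndufs3 gave 7.43 and 7.99 array medians in Dox(+) EBs against 20.8 and 22.8 in E15.5 pancreas (-1.50 ± 0.12, adjusted p = 1.61e-06), while its second probe differed by -0.21 (adjusted p = 0.157). Cox7a1 gave 1.13 and 0.92 against 8.42 and 8.39 in E15.5 pancreas, 8.23-fold lower, and Atp5g1 gave 39.1 and 33.0 against 81.4 and 86.4 in E15.5 pancreas (-1.22). Ndufa1 (0.49) and Ndufaf3 (0.47) were higher in Dox(+) EBs. The comparisons of Dox(+) EBs with βTC6 cells, islets and E15.5 pancreas share the Dox(+) arrays. Proliferation genes also differed in these comparisons. In Dox(+) EBs, 14 of the 15 were below βTC6 cells (median -1.87), all 15 were above islets (3.32) and 13 were below E15.5 pancreas (-1.001). For the 10 acinar markers, 6 passed upward and 2 downward against βTC6 cells, 9 passed downward against islets and all 10 against E15.5 pancreas. The part of either list in these comparisons was not tested.

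**Figure D5:**
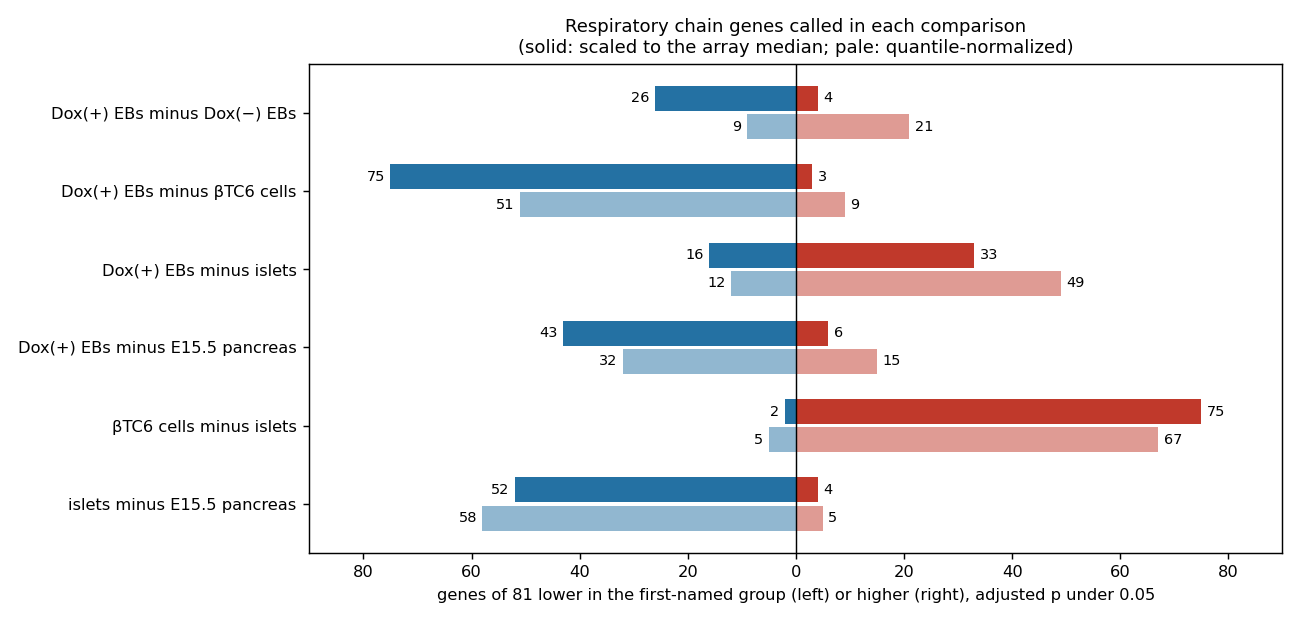
Number of the 81 tested genes that were lower (left, blue) or higher (right, red) in the group named first, at an adjusted p under 0.05, for each of the 6 comparisons. Solid bars are array-median scaling and pale bars quantile normalization. Only for Dox(+) EBs minus Dox(−) EBs does the larger of the 2 counts change side, with 26 lower and 4 higher against 9 lower and 21 higher.

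Other mitochondrial genes gave a mixed picture with doxycycline. Over all probes tested, 20.7% rose and 22.5% fell, and with quantile normalization 21.8% and 23.7%. Of 30 assembly factors of the chain that the symbol rule does not cover, 10 rose and 1 fell in Dox(+) EBs, with a median difference of 0.17 (0.19 with quantile normalization, where 14 rose and 2 fell). Cox15, which makes the heme of complex IV, gave 2.75 and 2.11 array medians in Dox(+) EBs against 1.00 and 1.00 in Dox(−) EBs (1.27 ± 0.14), and Atpaf1, which helps to assemble the catalytic part of complex V, gave 6.86 and 5.54 against 4.00 and 3.82 in Dox(−) EBs (0.66). Of 10 further subunits and carriers, 2 rose and 2 fell, and with quantile normalization 4 rose and 1 fell. Gpd2, the mitochondrial glycerol phosphate dehydrogenase, gave 7.47 and 7.57 in Dox(+) EBs against 2.99 and 3.43 in Dox(−) EBs (1.23), and Etfdh, which passes electrons from fatty acid oxidation to ubiquinone, rose by 0.60.

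Of 18 genes of the citric acid cycle and pyruvate dehydrogenase, 3 rose and 4 fell, and with quantile normalization 5 rose and 2 fell. Dld, a subunit shared by the large 2-oxoacid dehydrogenases, rose by 0.89, and Suclg2, the GTP-forming succinate-CoA ligase subunit, fell by 0.89 on the log2 scale. Of 19 regulators of mitochondrial biogenesis, 2 rose and 4 fell. Pprc1, a coactivator related to PGC-1, gave 19.6 and 19.3 array medians in Dox(+) EBs against 31.2 and 31.1 in Dox(−) EBs (-0.68), and Polg, the mitochondrial DNA polymerase, fell by 0.72 on the log2 scale, while Tfb2m (0.37) and Polrmt (0.40), both of the mitochondrial transcription machinery, rose. Among 29 carriers, porins and import genes, 3 rose and 7 fell, and with quantile normalization 7 rose and 4 fell. In each of these 3 lists the share called was below the 43.2% of all probes. Slc25a12, an aspartate-glutamate carrier, gave 9.58 and 9.74 in Dox(+) EBs against 2.83 and 2.75 in Dox(−) EBs (1.79), and its paralog Slc25a13 gave 6.09 and 5.71 against 9.42 and 9.66 in Dox(−) EBs (-0.69).

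Of 26 genes of glycolysis and lactate metabolism, 3 rose and 12 fell in Dox(+) EBs, with a median difference of -0.24. Of all probes, 20.7% rose and 22.5% fell. Pgam2, the muscle phosphoglycerate mutase, gave 0.42 and 0.34 array medians in Dox(+) EBs against 10.2 and 14.8 in Dox(−) EBs (-5.01 ± 0.18). Hk2, a hexokinase, gave 12.6 and 15.4 against 37.5 and 35.9 in Dox(−) EBs (-1.40). With quantile normalization, 3 of the 26 rose and 10 fell. Of 15 proliferation genes, 12 fell and none rose, with a median difference of -0.58, among them Cdc20 (-0.86), Birc5 (-0.83), Ccna2 (-0.61) and Mki67 (-0.67). Their summed level was 307 and 285 in Dox(+) EBs against 420 and 423 in Dox(−) EBs. Erythroid and platelet markers (9 of 9) and liver markers (10 of 12) also fell, while 6 of 10 acinar markers and 13 of 13 endocrine markers rose. The summed acinar level stayed low, at 22.7 and 27.1 in Dox(+) EBs against 5.44 and 5.38 in Dox(−) EBs. Cpa1 alone gave 13.1 and 17.4 of the Dox(+) sums. Between βTC6 cells and islets, 14 of the 18 citric acid cycle genes, 25 of the 30 assembly factors and 24 of the 29 carriers were higher in βTC6 cells, and with quantile normalization these counts were 11, 19 and 20. Of all probes, 39.1% were higher in βTC6 cells than in islets, and 33.0% with quantile normalization.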

How the data were processed

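The deposited values are spot intensity readings of 10 one-colour CodeLink mouse whole genome arrays. Per the file headers, the authors' CodeLink software took the spot mean less the median of its local background, then scaled each array to a median of 1 over 34967 discovery probes. The study's methods also name later filtering and a refined probe assignment, which were not used here.

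From these values, 1260 control spots per array were left out, masked, contaminated and irregular spots were set missing, levels under 0.27 were set to 0.27, and log2 was taken. Kept were 28109 probes that had a value in every group and exceeded background on both arrays in 1 group or more. One mean per group was fitted to the 10 arrays by limma 3.58.1 (R 4.3.3, lmFit, eBayes with trend and robust weights), with Benjamini-Hochberg adjustment over the 28109 probes, and a call is an adjusted p under 0.05. The fit was tested on simulated data with known changes in Dox(+) EBs. A group with both spots at background or saturated gives only a bound, computed on the same normalized values.

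The members, gene lists and alternatives were chosen with earlier results of these data known. Named members are those called at an absolute log2 difference of 1 or more in Dox(+) minus Dox(−) EBs, the largest called rise and fall of each complex in each comparison, and a fixed set of complex IV isoforms, complex II and Cycs, and the named list genes have the smallest adjusted p values of their list. Any other gene is said to be named after its values were seen, or is given because it was left out of testing. The alternatives were other floors, quantile normalization with and without normexp background correction, other filters, other fits, other spot and probe rules, a minimum difference, and each array left out in turn. The number of arrays limits the precision, with 2 in each group. Gene symbols came from the platform annotation updated through gene identifiers, which gave 21615 probes 1 symbol, 681 several and 12671 none. Promoter sequences are from RefSeq.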

Additional observations from a re-analysis of the deposited data

How the results depend on the processing

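Of 175 calls of named members over the 6 comparisons, 126 were kept under each of the 21 settings in which the gene was tested, and 49 were not. Some settings did not test every member, such as that of probes above background on all arrays, with 75 members tested. Of these 49, 14 changed sign under at least 1 setting, and 35 kept their sign but did not pass under at least 1. In Dox(+) minus Dox(−) EBs, 4 members were higher and 26 lower. With quantile normalization, with or without normexp background correction, 21 were higher, and 9 (without) or 10 (with) were lower. The lower count was 17 with a floor of 1, with no filter on background, or with only the 2 groups compared, and a minimum log2 difference of 0.5 left 2 higher and 7 lower. Both quantile settings gave 9 higher in Dox(+) EBs minus βTC6 cells, 15 higher in Dox(+) EBs minus E15.5 pancreas, and 5 lower in βTC6 cells minus islets. In Dox(+) EBs minus E15.5 pancreas, 3 were higher with a floor of 1. A minimum difference of 0.5 left 3 higher and 19 lower there, 19 higher in Dox(+) EBs minus islets, and 2 higher in islets minus E15.5 pancreas. In βTC6 cells minus islets, 1 was lower among probes above background on all arrays and 1 with only the 2 groups compared.

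Leaving out 1 array at a time gave 3 to 5 higher and 17 to 28 lower in Dox(+) minus Dox(−) EBs, 2 to 3 and 71 to 75 in Dox(+) EBs minus βTC6 cells, 25 to 34 and 14 to 18 in Dox(+) EBs minus islets, 4 to 7 and 27 to 47 in Dox(+) EBs minus E15.5 pancreas, 73 to 74 and 1 to 2 in βTC6 cells minus islets, and 3 to 5 and 43 to 53 in islets minus E15.5 pancreas. The array left alone in its group was then assumed to vary like the other groups. The fall of Ndufaf7 with doxycycline was also lost without either E15.5 array (adjusted p = 0.0515 and 0.0516).

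With quantile normalization, the direction turned, among named members, for Cox5b (0.0044) and Cox6a1 (0.10) in Dox(+) minus Dox(−) EBs. In Dox(+) EBs minus βTC6 cells it turned for Uqcrc2 (0.77), Ndufa10 (0.42), Sdha (0.30), Ndufaf1 (0.11), Cox4i1 (0.067), Atp5o (0.034) and Cox7a2l (0.0066). It turned for Cox7b (0.028) in Dox(+) EBs minus islets, and for Sdha (-0.37) and Atp5l (-0.077 and, with normexp, -0.076) in βTC6 cells minus islets. Normexp with quantile normalization gave the same rounded values for the others. With the mean over its probes, Atp5g1 turned in βTC6 cells minus islets (-0.14) and in islets minus E15.5 pancreas (0.83). The cause of these turns was not tested.

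The labels do not say whether samples with the same replicate number were paired. The deviations of same-numbered arrays correlated between -0.0688 and 0.0626, which cannot settle whether such samples shared a culture. With the number as a replicate block, the higher and lower counts were 5 and 26, 3 and 75, 31 and 15, 6 and 41, 75 and 2, and 4 and 52 in the 6 comparisons in the order above, and among named members the call lost was that of Ndufaf7 with doxycycline (adjusted p = 0.0546). Spots near background and saturated spots, 60 to 114 per array, limit what could be measured for the faintest and brightest members.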

Other observations

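Of 11 second probes of the members, 6 were tested and the other 5 were not. The second probe of Uqcrh gave 87.3 and 85.7 array medians in Dox(+) EBs against 129 and 127 in Dox(−) EBs (-0.57, adjusted p = 0.000587 by limma), the same direction as the brighter probe. The second probe of Atp5g1 was 9.46 and 11.3 in islets against 1.51 and 1.79 in E15.5 pancreas (2.65), while the brighter probe ran the other way. The second probe of Ndufaf7 differed by -0.01 between Dox(+) and Dox(−) EBs, while the brighter probe passed at -0.28. The second probe of Ndufs3 gave 9.36 and 10.7 in Dox(+) EBs against 11.2 and 11.9 in E15.5 pancreas (-0.21, adjusted p = 0.157), while the brighter probe differed by -1.50. In Dox(+) EBs minus islets these 2 probes of Ndufs3 ran in opposite directions (0.21 and -1.08).

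The annotation gives 6 probes a respiratory chain symbol beside other genes, and which transcript they read is uncertain. The probe of Nop53;Cox5a fell to 32.3 and 32.2 array medians in Dox(+) EBs, against 47.4 and 47.6 in Dox(−) EBs (-0.56, adjusted p = 0.000146). The probe of Ndufa4;Zfp593 gave 83.8 and 81.01 in Dox(+) EBs against 111 and 99.5 in Dox(−) EBs (-0.35, adjusted p = 0.00612). The probe of Ndufb8;A830049F12Rik;Rnf4 gave 224 and 243 in βTC6 cells against 45.7 and 45.0 in islets (2.36). The probe of Ndufv3;Eps8l2 was higher in islets, with 93.7 and 69.7 against 46.4 and 52.9 in E15.5 pancreas (0.71, adjusted p = 0.00156).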
